A study of Mus musculus with 2 samples.

Results

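The transcripts of ubiquitin ligases were examined in FMRP RNA immunoprecipitation sequencing (RIP-seq) of mouse testis. RIP-seq precipitates a protein together with the RNA bound to it and reads that RNA beside the RNA of the starting lysate. FMRP is an RNA-binding protein known as a regulator of translation. There were 2 libraries from testis of adult wild type males, 1 input library and 1 library precipitated with an anti-FMRP antibody (FMRP RIP), so the differences below have no replicate check and no test was run. No IgG library was used here, and neither the number of animals behind the lysate nor their strain is given in the labels. Members were taken by gene symbol, as RING, HECT, RBR, U-box, UBR, TRIM, MARCH and related ligase names together with the E2 names that begin with Ube2. This rule found 99 of the 4788 genes in the deposited table. Of these 99, 7 are E2 conjugating enzymes, so the label of RING and HECT ligases covers 92 of the members by name.

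Ubiquitin is passed along a chain of enzymes. An E1 activates it, an E2 carries it, and an E3 ligase chooses the substrate. RING and U-box ligases bring the loaded E2 to the substrate, whereas HECT ligases first take ubiquitin onto a cysteine of their own, and RBR ligases combine both modes. In the testis, ubiquitination is known for its part in meiotic recombination, in the silencing of the sex chromosomes and in the removal of histones from spermatids.

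Every gene in the deposited table was marked by the authors as higher in the FMRP RIP. The direction of each value below is fixed by that selection, which also bounds its size from below. Values are CPM, read numbers made comparable between libraries of different depth. Among all listed genes the lowest FMRP RIP value was 1.08 CPM, whereas input values went down to 0. The 9 members under 1 CPM in the input were thus listed through their FMRP RIP value. Medians and the low end of the ratios below are therefore cut off by the selection and describe listed genes only. Enrichment is given as a log2 ratio, RIP over input, with 1 CPM added on both sides, which understates the difference of low genes. For single genes the plain ratio of the CPM values is also given, with an exact 95% interval that covers counting error only. CPM is not divided by transcript length, so levels are set side by side within a gene and not between genes. The lysate is bulk testis, where fewer cells of a type and less RNA per cell cannot be told apart. The steps of the CPM values put the totals at 30849871 reads for the input and 36506932 reads for the FMRP RIP, and 3 reads corresponded to 0.0972 CPM in the input. Of 39 marker genes of testis cells, 4 were among the listed genes, where 21.3% of all protein-coding reference genes were listed. The 4 were *Gfra1*, *Sycp1*, *Hspa2* and *Vwf*, and the other markers were not analysed here.

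As a group, the ligases were recovered like the other listed genes. Their median log2 ratio was 1.29, beside 1.35 over all 4788 genes. A log2 ratio above 1 was reached by 68 of the 99 members (68.7%), where the share over all listed genes was 70.1%. With the pseudocount, 95 members were at least 1.5-fold higher, against a background of 97.3%. The authors' cut-off of 1.5-fold fixes this count apart from the pseudocount, and without it all 99 members reached 1.5-fold. Above a log2 ratio of 2 there were 27 members (27.3%) beside 25.0% of all listed genes, and above 3 there were 7 members beside 6.62%. These shares lie close to the background, and nothing in them sets the ligases as a whole apart from the table. What differed was the size among the members themselves, from 0.50 for *Trim9* to 3.81 for *Ubr4*. The low end depends on the pseudocount and on the selection of the table. The plain ratio of *Trim9*, on 18 input reads, was 2.11 (1.20 to 3.88), and that of *March7* was 1.61 (1.47 to 1.77).

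**Figure D1:**
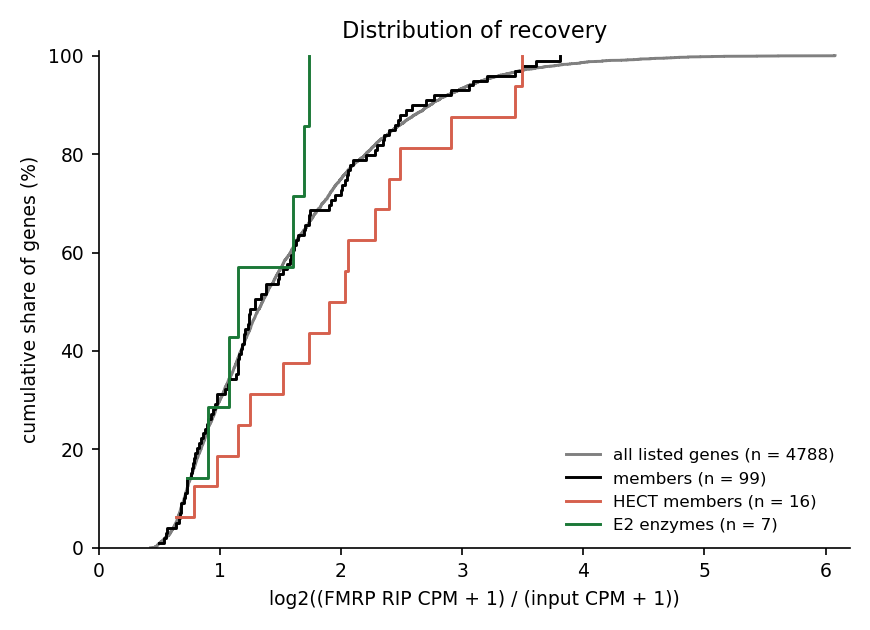
Cumulative share of genes (percent, vertical axis) by log2 ratio (RIP over input, 1 CPM added to each; horizontal axis), for all 4788 listed genes, the 99 members, the 16 HECT members and the 7 E2 enzymes. The curve of the members follows that of all listed genes, the HECT curve lies to the right of both over most of the range, and the E2 curve ends at 1.73.

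The share of reads taken by the members was 0.471% in the input against 2.08% after precipitation, which makes 4.42-fold, beside 3.89 for all listed genes. A few ligases made up much of this difference. *Ubr4* alone held 13.2% of the members' CPM in the FMRP RIP and 4.13% of it in the input. *Trip12* held 11.3% and 4.60%. *Ubr4* accounted for 15.9% of the CPM gained by all members and *Trip12* for 13.3%, and the 10 genes with the largest gain accounted for 64.3%.

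**Figure D2:**
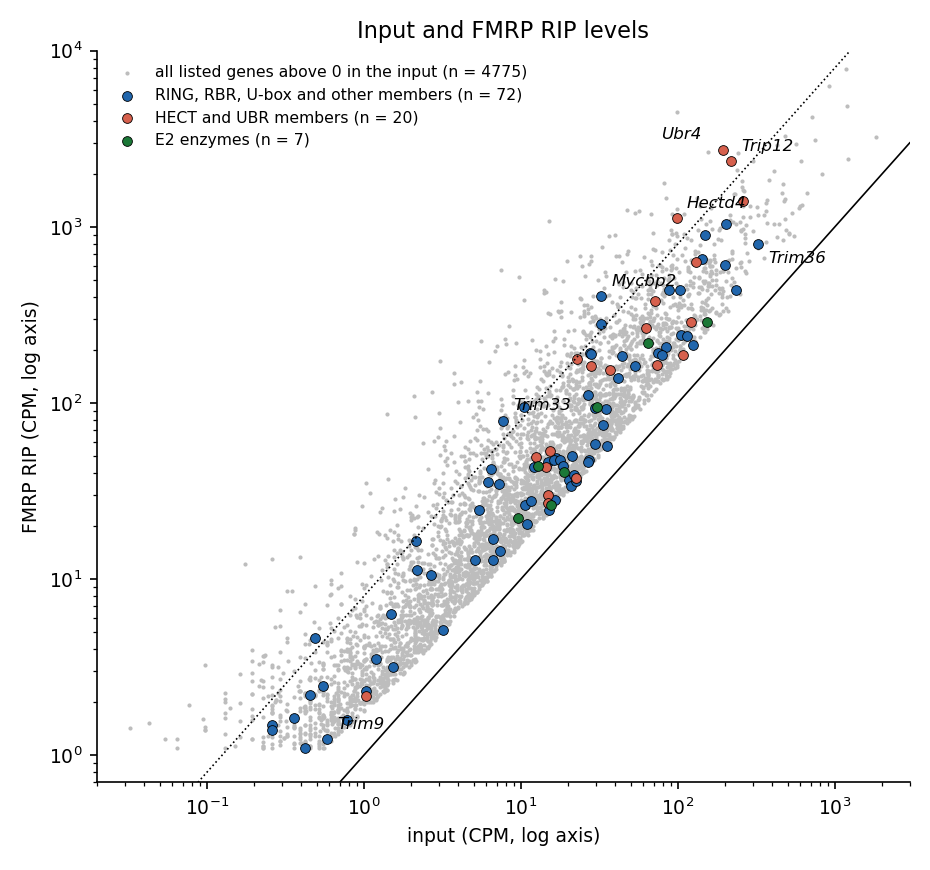
CPM in the FMRP RIP against CPM in the input, both on log axes, with 1 point per gene: the 4775 listed genes above 0 in the input in grey, overlaid by the 20 HECT and UBR members in red, the 7 E2 enzymes in green and the other 72 members in blue. The solid line marks equal CPM and the dotted line an 8-fold ratio; *Ubr4*, *Trip12*, *Hectd4* and *Mycbp2* lie above the dotted line and *Trim36*, at 326 CPM in the input, lies well below it.

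The HECT ligases were the class of at least 5 members with the highest median. The median log2 ratio of the 16 HECT members was 1.97. Of them 13 lay above 1 (81.25%, all listed genes 70.1%) and 8 above 2 (50.0%, all listed genes 25.0%). This median was a description over 16 genes and was not tested against the other classes. The HECT members had a median gene span of 103.8 kb and a median input of 50.0 CPM. Over all listed genes these were 47.5 kb and 9.27 CPM, and the part of either in the HECT median was not tested. *Hectd4* (GRCm38, chromosome 5 from 121220219 to 121368577) had 98.1 CPM in the lysate input against 1119 CPM after precipitation, a ratio of 11.4 (interval 10.99 to 11.8). *Trip12* (chromosome 1 from 84721189 to 84840516), a nuclear ligase that also degrades ubiquitin fusion proteins, had 217 CPM and 2358 CPM, a ratio of 10.9 (10.6 to 11.2). The intervals of these genes overlap. The very large ligase *Huwe1* on the X chromosome, from 151800807 to 151935417, had 27.9 CPM and 161 CPM. Its ratio was 5.78 (5.38 to 6.21). *Herc1* had 71.4 CPM and 380.3 CPM and *Herc2* 63.0 CPM and 265 CPM, so both giant HERC proteins had transcripts over 4-fold higher in the FMRP RIP. At the other end of the class lay *Ube3a*, the ligase lost in Angelman syndrome, with 14.8 CPM and 30.2 CPM (log2 ratio 0.98), *Ube3c* (0.79) and *Nedd4l*, a regulator of sodium channels (0.64). The value of *Nedd4l* rests on 32 input reads, and its plain ratio of 2.09 was above the 1.73 of *Ube3c*.

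A very high and some low values met in the UBR class, whose proteins share the UBR box and whose best known members recognise the N-terminus of their substrates. *Ubr4* (chromosome 4 from 139352609 to 139489588) ranked 91 of all 4788 genes, with 195 CPM before and 2746 CPM after precipitation and a ratio of 14.1 (13.7 to 14.5). Its span overlaps that of *Emc1*. *Ubr1*, the founding N-recognin, had only 14.9 CPM and 26.9 CPM (ratio 1.81, interval 1.61 to 2.02), and *Ubr3* 22.5 CPM and 37.4 CPM (1.67, 1.52 to 1.83). The intervals of *Ubr1* and *Ubr3* overlap each other and lie far below that of *Ubr4*.

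*Mycbp2* (chromosome 14 from 103113411 to 103346814), a giant RING ligase with a known role in axon growth and synapse formation, was second among all members. It had an input level of 32.2 CPM and a RIP level of 404 CPM, a ratio of 12.5 (11.8 to 13.4) and a log2 ratio of 3.61. *Birc6*, a giant protein that works as both E2 and E3 and restrains apoptosis, had a lower ratio of 3.16 (2.94 to 3.41), from 29.7 CPM and 94.0 CPM.

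The 20 TRIM members, named for a RING, B-boxes and a coiled coil although *Trim44* and *Trim66* lack the RING, had a median log2 ratio of 1.22. Of these members 13 lay above 1 (65.0%, all listed genes 70.1%). At the top stood *Trim33* and *Trim24*, transcriptional cofactors of the TIF1 group. *Trim33* had 7.71 CPM before and 79.4 CPM after precipitation (ratio 10.3, interval 9.02 to 11.8). *Trim24* had 32.3 CPM and 282 CPM (8.73, 8.18 to 9.33). *Trim42* lay next to them with 10.5 CPM and 94.5 CPM (9.03, 8.05 to 10.2), and the intervals of these genes overlap. *Trim37*, the gene of mulibrey nanism and a guard of centriole number, had 202 CPM and 1032 CPM, a ratio of 5.12 (4.99 to 5.26). *Trim36*, linked to the acrosome reaction, had the most input reads of all members, 10046, but a ratio of 2.45 (2.39 to 2.50), from 326 CPM and 797 CPM. *Trim71*, a regulator of stem cells, rested on 46 input reads with a log2 ratio of 1.56. *Trim45* (0.68) and *Trim9* (0.50) had the lowest log2 ratios among the TRIM members, the latter with 18 input reads.

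**Figure D3:**
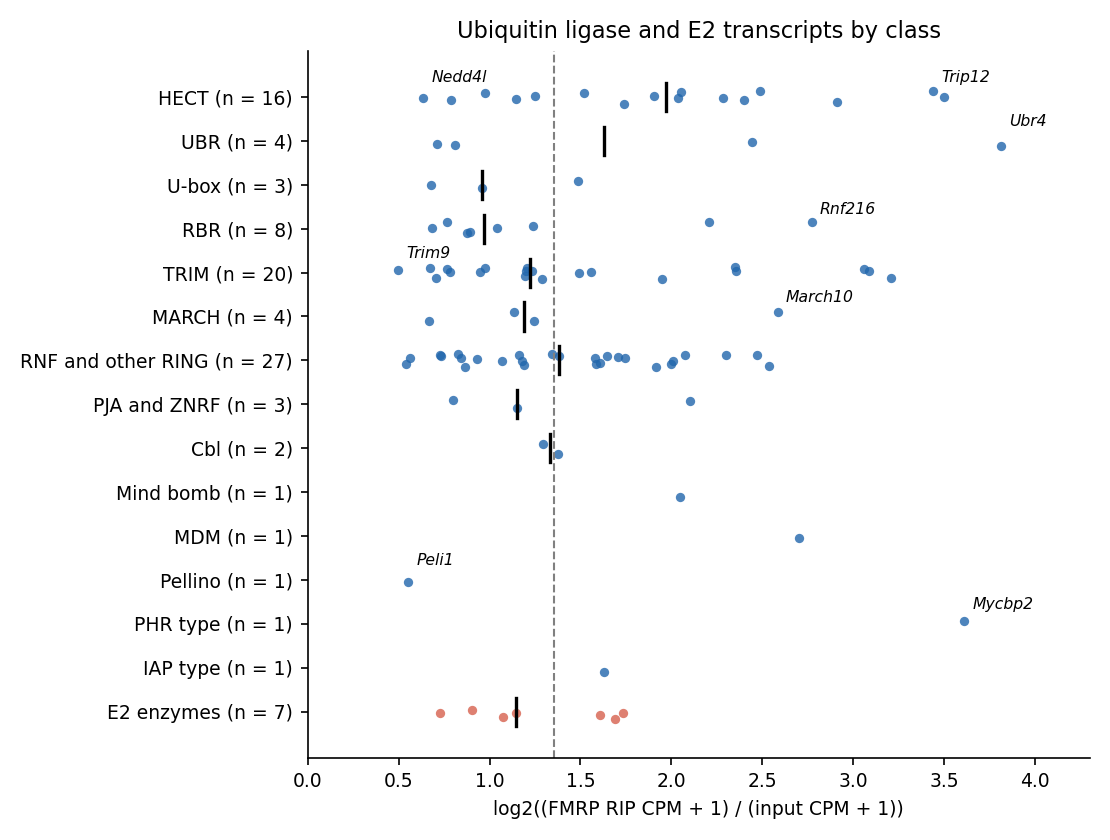
Log2 ratio (RIP over input, 1 CPM added to each; horizontal axis) for each of the 99 members, 1 point per gene, in 15 classes by symbol; black bars are the medians of classes with more than 1 member, points are spread vertically only for visibility, and the dashed line is the median of all listed genes at 1.35. The HECT median of 1.97 lies to the right of the line, whereas the RBR median of 0.97 and the E2 median of 1.15 lie to the left, and most classes span a wide range.

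RBR ligases gave a low median of 0.97 over 8 members, with 4 of them above 1 (50.0%, all listed genes 70.1%). Within this class *Rnf216*, mutated in Gordon Holmes syndrome with low sex hormone levels, was far above the median, with 27.5 CPM in the lysate input against 193 CPM after precipitation (ratio 7.04, interval 6.55 to 7.57). *Rnf19a* had 142 CPM and 658 CPM (4.64, 4.49 to 4.79). The others lay at log2 ratios between 0.68 for *Rnf144b* and 1.24 for *Arih1*, a partner of cullin ligases. Among the U-box members, *Ube4b*, which lengthens ubiquitin chains, had a log2 ratio of 1.48, its relative *Ube4a* 0.96 and *Ubox5* 0.68.

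The largest class was that of the 27 RNF and other RING members, with a median log2 ratio of 1.38. In it 19 members lay above 1 (70.4%, all listed genes 70.1%), which is the background share. *Dzip3*, a ligase that also binds RNA, had the highest log2 ratio with the pseudocount, 2.53, with an input level of 6.42 CPM and a RIP level of 42.0 CPM, and its span overlaps that of *Cip2a*. Its plain ratio of 6.54 (5.64 to 7.63) was below those of *Rnf170* (7.67, 5.94 to 10.05) and *Rnf43* (9.46, 5.58 to 17.3), which rest on 66 and 15 input reads. Several members with roles in germ cells or chromatin lay in the middle. *Rnf17*, a tudor domain protein of germ cell granules needed for spermiogenesis, had 34.8 CPM and 92.3 CPM (ratio 2.65, interval 2.48 to 2.85). *Rnf40*, which modifies histone H2B, had a log2 ratio of 1.59, and *Rnf168*, which modifies histone H2A at DNA breaks, had 1.18. *Rlim*, the X-linked ligase of X inactivation, had 16.5 CPM and 28.0 CPM and a log2 ratio of 0.73. The lowest log2 ratio of the class was that of *Rnf212*, a gene of meiotic crossovers, at 0.54 with 24 input reads. Its plain ratio of 2.04 (1.25 to 3.44) was above the 1.70 of *Rlim*.

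Smaller classes held single high members. *March10*, a microtubule-associated ligase of spermatids, had 149 CPM before and 899.6 CPM after precipitation, a ratio of 6.03 (5.84 to 6.22). *March7*, whose protein is also called axotrophin, had 22.4 CPM and 36.1 CPM, a ratio of 1.61 (1.47 to 1.77). *Mdm4*, which binds and inhibits p53 but is a poor ligase by itself, had 28.1 CPM and 188 CPM, a ratio of 6.70 (6.24 to 7.20). *Mib1*, a ligase of Notch ligands, had a log2 ratio of 2.05, from 44.2 CPM and 186 CPM. *Cbl* and *Cblb*, which switch off receptor tyrosine kinases, had 1.29 and 1.38. *Peli1*, a ligase of Toll-like receptor signalling, had 3.18 CPM and 5.12 CPM, and with a log2 ratio of 0.55 it was 1 of the 4 members under a 1.5-fold difference with the pseudocount, the others being *Rnf182*, *Rnf212* and *Trim9*.

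The 7 E2 enzymes had log2 ratios from 0.73 to 1.73, with a median of 1.15 and none above 2 (all listed genes 25.0%). *Ube2d2b* had the highest log2 ratio, with 64.8 CPM in the lysate input against 218 CPM after precipitation (ratio 3.36, interval 3.20 to 3.53), though the plain ratio of *Ube2h* was 3.40 (3.05 to 3.81). It spans 1.68 kb, lies within the span of *Evi5* and closely resembles *Ube2d2a*, so its read assignment is uncertain. *Ube2o*, which acts as E2 and E3 at once, had a log2 ratio of 1.61. *Ube2j1*, an E2 of the endoplasmic reticulum, had 154 CPM and 289 CPM, a ratio of 1.88 (1.82 to 1.94). *Ube2v1*, an E2 variant without a catalytic cysteine, had the lowest log2 ratio, 0.73.

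Related ligases differed in recovery about as often as members in general. For 37 members of 14 families, chosen with the values known, 39 pairs within families were set side by side, and the counting intervals of 27 pairs did not overlap (69.2%) while those of 12 did. Over all pairs of the 99 members the intervals lay apart in 70.1%, and over all pairs of listed genes in 63.2%, so the share within families lies near the background. The widest gap was that of *Ubr4* over *Ubr3*, whose ratios differed 8.46-fold. In the TIF1 group, *Trim33* and *Trim24* were above *Trim66* by 3.53-fold and 2.99-fold. *Hectd4* was 3.81-fold above *Hectd2*, *Ube3b* 2.83-fold above *Ube3c*, and *Rnf19a* 2.50-fold above *Rnf19b*, which had an input level of 235 CPM and a RIP level of 436 CPM. *Znrf3*, a ligase that removes Wnt receptors, was 2.68-fold above *Znrf2*, and *Toporsl* was 1.77-fold above *Topors*. In the NEDD4 family, which shares a C2 domain and WW domains, *Smurf2* (ratio 4.18), *Wwp1* (3.97) and *Itch* (3.49) lay above *Wwp2* (2.39) and *Smurf1* (2.23), with no overlap between the first set and the second. *Nedd4l* (2.09, 1.37 to 3.25) overlapped all but *Smurf2* and *Wwp1*. *Trim33* and *Trim24*, *Cbl* and *Cblb*, *Rnf144a* and *Rnf144b*, and *Ubr1* and *Ubr3* were pairs with overlapping intervals, which does not show that they are alike. These intervals hold counting error alone, and how far another pair of libraries would vary is unknown.

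**Figure D4:**
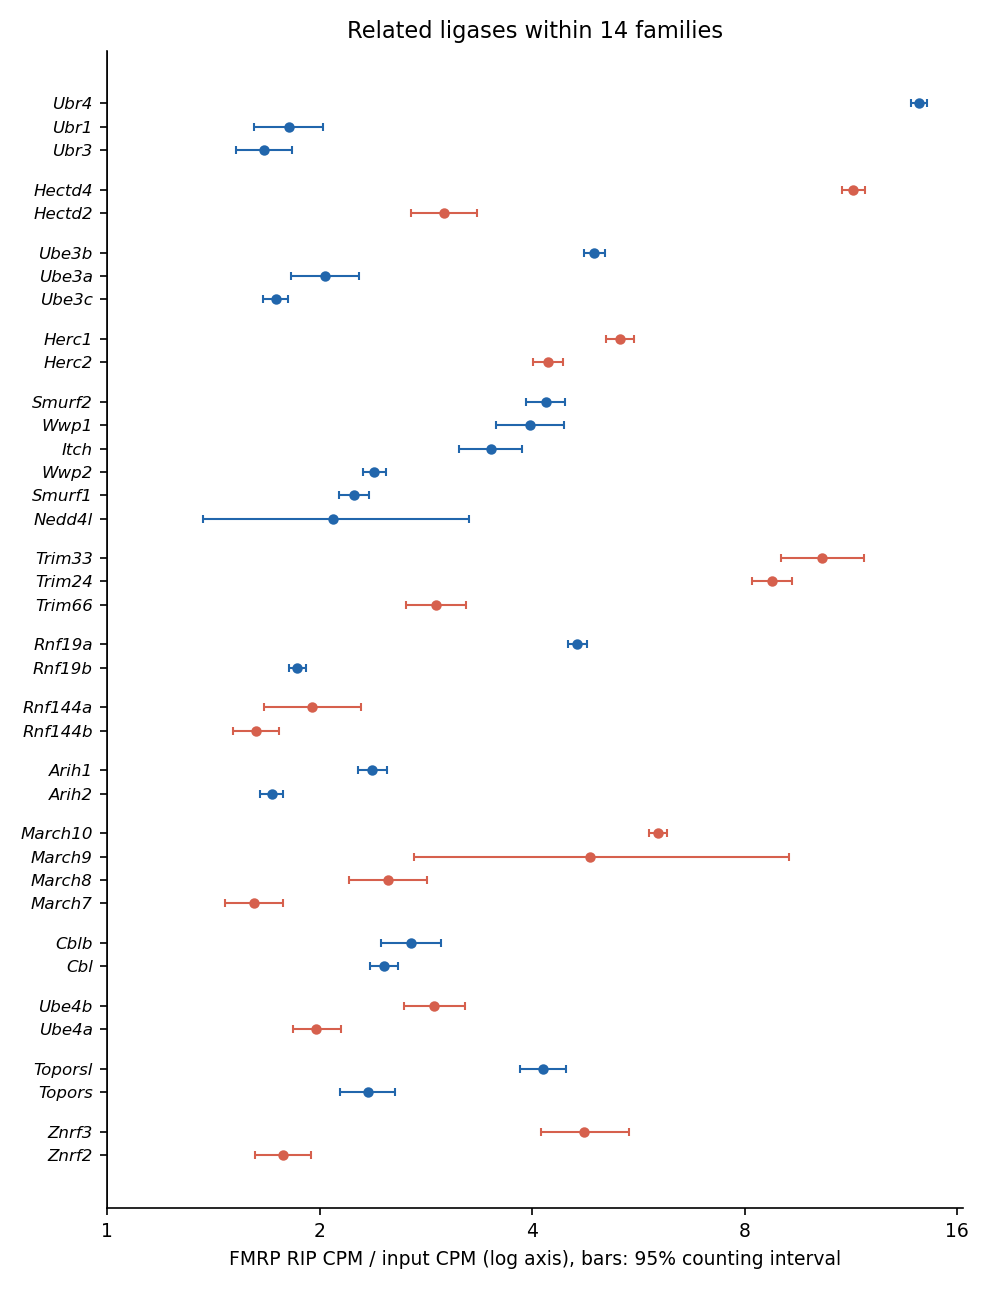
Ratio of FMRP RIP CPM to input CPM (horizontal log axis) for 37 members of 14 families, 1 row per gene with families set apart by gaps and by alternating colours; bars are exact 95% intervals of counting error. *Ubr4* lies to the right of *Ubr1* and *Ubr3*, *Trim33* and *Trim24* to the right of *Trim66*, and the wide bars of *Nedd4l* and *March9* go with their 32 and 14 input reads.

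In the RefSeq annotation, 270 protein-coding genes matched the symbol rule, 6 of which are no ligase by name. Of these genes, 99 were listed (36.7%). Over all protein-coding reference genes 21.3% were listed. The share was uneven among classes. Of 21 HECT genes 16 were listed, of 10 RBR genes 8, of 6 UBR genes 4 and of 3 U-box genes 3. By contrast, 20 of 70 TRIM genes, 27 of 82 RNF and other RING genes and 7 of 37 E2 genes were listed, and none of the 4 SIAH genes. Gene span, which counts introns, was set beside the listed share for the classes of at least 10 reference genes. Its median was 93.4 kb for the HECT genes, 75.2 kb for the RBR genes and 75.2 kb for the MARCH genes. For the E2, RNF and other RING, and TRIM genes it was 30.4 kb, 23.8 kb and 16.2 kb. In the same order the listed shares were 76.2%, 80.0%, 36.4%, 18.9%, 32.9% and 28.6%. Among genes spanning at least 100 kb, 30 of 43 symbols of the rule were listed (69.8%) beside 49.2% of all such genes, and under 25 kb the shares were 21 of 131 (16.03%) and 9.61%. The level of the unlisted genes in testis was not analysed here, so the part of expression and span in these shares was not tested. A symbol outside the table may have been lower, unchanged, higher without meeting the authors' cut-offs, or too low to be called.

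A list of 40 ligases and E2 enzymes was looked up by name. It was picked for known roles in testis or for the largest or best known ligases, so its count does not describe ligases in general. Of these 40, 25 were listed and 15 were not, where 36.7% of the symbols of the rule were listed. The latter included *Rnf8*, which modifies histones at DNA breaks and in spermatids, *Ubr2*, whose loss makes male mice infertile, *Siah1a*, needed for male meiosis, *Herc4*, linked to sperm maturation, and the E2 *Ube2b*, whose loss also causes male infertility. *Mdm2*, *Xiap*, *Nedd4*, *Rnf2*, *Rnf133*, *Rnf138*, *Rnf151*, *Rnf213*, *Trim28* and *March11* were absent from the list as well. For these genes no value can be given.

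**Figure D5:**
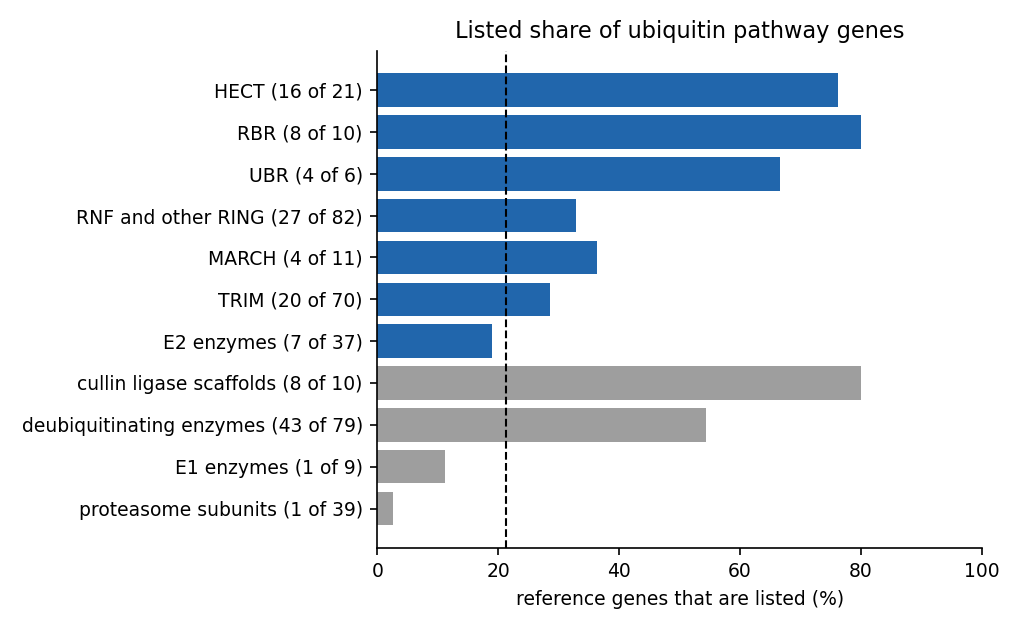
Share of reference protein-coding genes that appear in the deposited table (percent, horizontal axis) for 7 classes of members in blue and 4 other lists of the ubiquitin pathway in grey, with the numbers of listed and reference genes beside each name; the dashed line is the share over all protein-coding genes, 21.3%. The HECT, RBR and cullin bars reach 76.2% to 80.0%. The cullin bar also counts *Rbx1* and *Rnf7*, which are no cullins and were not listed. The E2 enzymes at 18.9% and the proteasome subunits at 2.56% lie to the left of the line.

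Other steps of the ubiquitin pathway were listed very unevenly. Of 39 proteasome subunits only *Psmc2* was listed, with 151 CPM before and 298 CPM after precipitation. Of 9 E1 and E1-like enzymes only *Uba6* was listed (log2 ratio 1.06). A list of cullin ligase genes, made of the cullin scaffolds with *Rbx1* and *Rnf7*, had 8 of 10 genes listed. All 8 were cullins, with a median log2 ratio of 1.28, led by *Cul3* at 3.42. No cullin of the list was missing, and neither *Rbx1* nor *Rnf7* was listed. Deubiquitinating enzymes, which take ubiquitin off, had 43 of 79 symbols listed, in 44 entries as *Usp39* appears in duplicate. The name pattern also takes *Usp6nl*, which is no such enzyme. Their median was 1.52, and 16 entries were above 2 (36.4%, background 25.0%). The highest of them was *Usp8* at 4.94, above every ligase. Ligase and deubiquitinase medians were not tested against each other.

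Across the 99 members, the log2 ratio and the gene span had a Spearman's rho of 0.24, and over all 4788 listed genes it was 0.16. By span, 13 of the 29 members of at least 100 kb lay above a log2 ratio of 2 (44.8%), beside 31.0% of all listed genes of that span, and 2 of the 20 members under 25 kb did, beside 16.8%. With the input level the rho of the members was 0.31 with the pseudocount and 0.0080 without it. Over all listed genes these were 0.25 and -0.097. The points share the same 2 libraries, and genes are not independent replicates.

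Read assignment limits some of these values. In 26 members (26.3%) at least 1 library had a count that was not a whole number of reads, beside 26.8% of all listed genes, and they included *Ubr4*, *Hectd4*, *Trip12*, *Trim24*, *Mdm4* and *Huwe1*. The 73 members with whole reads in both libraries had a median log2 ratio of 1.24 and the 26 others one of 1.62. The span of 15 members overlapped that of another protein-coding gene, among them *Ubr4*, *Trip12* with *Fbxo36* and *Rnf139* with *Tatdn1*. Whether the counting used strand is not given in the sources used here, so reads of such neighbours cannot be told apart. Without these 15 members the median was 1.24.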

How the data were processed

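The authors deposited 1 table of CPM values per gene for the input and the FMRP RIP, restricted to protein-coding genes that they marked as higher. The submitters' processing notes list STAR and the GRCm38 build, and the counting tool and annotation are not given in the sources used here. The deposited table also holds the authors' log2 fold change, fold change ratio, p-value and adjusted p-value from edgeR, and these columns were not used.

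The log2 ratio was computed with a pseudocount of 1 CPM. Library totals were found from the steps of the CPM values. Only 78.4% of the input values above 0 and 78.8% of those in the FMRP RIP were within 0.005 of a whole read, so no count test was run. Exact Clopper-Pearson intervals at 95% used the rounded reads. They cover counting error only, since PCR copies are not independent molecules. Symbols were matched to RefSeq genes of GRCm38.p6: all 99 members matched, 5 of them through a synonym, and all 99 positions overlapped the one given there.

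The members, classes and lists were chosen with earlier results of these data known. Genes were named from a list of 40 ligases, with the 10 highest and 5 lowest members among those with at least 100 reads over both libraries and the extremes of each class of 5 or more. Members named for their place in a family or role in a class were added after their values were seen. Some genes are not reported here by name. The functions were tested on simulated data. Computation ran in Python 3.11.15 with pandas 2.3.3 and numpy 2.4.6, intervals in scipy 1.17.1, and plots in matplotlib 3.10.9.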

Additional observations from a re-analysis of the deposited data

How the results depend on the processing

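The median log2 ratio of the 99 members, 1.29 as reported, became 1.18 when 5 CPM were added, 1.54 when less than 1 CPM was added, 1.56 when nothing was added, 1.43 when only genes of at least 1 CPM on both sides were kept, and 2.23 when the libraries were scaled by reads of unlisted genes. Over all listed genes these settings gave 1.04, 1.57, 1.61, 1.41 and 2.24. In the same order, the RNF and other RING members had 1.06, 1.61, 1.61, 1.58 and 2.31, and the TRIM members 1.02, 1.44, 1.45, 1.29 and 2.14. Adding 5 CPM gave 1.78 for the HECT members, 0.81 for the RBR members and 0.94 for the E2 enzymes, and the other scaling gave 2.90, 1.82 and 2.06. The RBR median was 1.10 both with the smaller pseudocount and with none. Elsewhere the class medians stayed within the counting interval of the gene at the median. The other scaling multiplies FMRP RIP values by 1.92. Under these 5 settings the HECT median stayed above the RBR, TRIM, E2 and RNF medians.

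The count above a log2 ratio of 1 went from 58 of 99 (58.6%, all listed genes 51.7%) with 5 CPM to 99 of 99 (all listed genes 99.96%) with the other scaling, and the count at 1.5-fold from 85 to 99. Leaving out the E2 enzymes gave a median of 1.32, and unique symbols gave 1.29 again. Of 188 values of named genes, 48 moved beyond counting error, 36 of them with the other scaling and 12 with 5 CPM, and none changed direction, which the selection of the table fixes. Without a pseudocount, 8 of the 10 highest members were the same. No paired analysis was possible because there is a single library on either side. Depth limits 7 members with under 100 reads over both libraries.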
